A study of Mus musculus with 15 samples.

Results

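The lysosomal genes described here are 51 genes fixed by name: 11 proteases, 11 glycosidases, 2 sulfatases, 7 lipid or lipid-linked hydrolases and their cofactors, 6 membrane proteins and 14 genes of the vacuolar proton pump (V-ATPase), of which 5 code for the membrane sector V0, 7 for the catalytic sector V1 and 2 for accessory proteins. They were matched by gene symbol, without use of any measured value, and all 51 were found in both count tables, which hold 20910 genes for cultured mouse retinal pigment epithelium (mRPE) cells and 25038 genes for mouse RPE/choroid tissue. All 51 passed the filter on low counts in every comparison.

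RNA was sequenced from 15 libraries to ask how loss of Prom1, a pentaspan membrane protein of cell protrusions and mitochondria, changes the RPE. The mRPE cells came from pooled adult C57/BL6J mice and were immortalised with the HPV E6/E7 genes, and they gave 4 WT libraries, 3 libraries of the Prom1-KO line KO22 and 2 libraries of the Prom1-KO line KO26, both lines having been made with lentiviral Cas9 and a synthetic guide against Prom1. The authors set both KO26 libraries aside as outliers in their own analysis. Each line is a single edited line, so that the line and the knockout cannot be told apart, and whether the WT cells that were sequenced carried Cas9 is not stated. RPE/choroid gave 3 WT and 3 Prom1-KO libraries, the latter from Prom1 fl/fl mice crossed with RPE65-Cre and given tamoxifen. Whether these WT mice carried the floxed allele or Cre, or received tamoxifen, is not stated. The paper gives an age range for the mice of its project, but does not say that it covers the RPE/choroid donors. The RPE/choroid also holds choroidal cells in which this Cre is not driven. The mRPE library names fall into 2 sequencing batches, with replicate 1 of each group in batch 1 and the other replicates in batch 2. The study calls its replicates biological, but nothing states that they were separate cultures or animals, so that p-values measure the spread between these libraries, which may be technical.

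Total counts were 8076188 to 27537863 per mRPE library and 48154444 to 61766179 per RPE/choroid library. Prom1 was not analysed here in the mRPE libraries, so that the knockout was not checked in these libraries for KO22 or KO26. The paper itself reports reduced Prom1 RNA by qPCR and absent protein by Western blot in both knockout lines. In RPE/choroid Prom1 stood at 48.7, 49.6 and 53.3 CPM (counts scaled to a common library size) in the WT libraries. It stood at 49.9, 48.1 and 35.5 CPM in those labelled Prom1-KO (edgeR log2 fold change −0.18, SE 0.16, adjusted p = 0.824), so the RNA of the targeted gene did not separate the labels. Of 14 RPE markers, 3 (Best1, Pmel and Mitf) were analysed in mRPE, with a summed level of 8.19 to 12.8 CPM in WT, 15.5 to 38.7 CPM in KO22 and 5.38 and 9.14 CPM in KO26. The other 11, Rpe65 and Rlbp1 among them, were not analysed here in mRPE. The authors left genes with low counts out of that table. Of 12 macrophage markers, 3 were analysed in mRPE and summed to 4.23 to 7.86 CPM over all 9 libraries. KO22 differed from WT across most of the transcriptome and in other marker lists too. The 6 endothelial markers summed to 153 to 238 CPM in WT and 4.89 to 6.75 CPM in KO22, a sum set by Kdr (log2 fold change −6.22). Of the others Tek was called lower (−2.38) and Plvap higher (1.82), and the median of the 6 was 0.09. The 5 fibroblast markers, of which 4 were called lower, summed to 12806 to 17506 CPM in WT and 5564 to 8659 CPM in KO22. The part of these shifts in the lysosomal values was not tested.

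Lysosomes degrade proteins, glycans and lipids with acid hydrolases, and the V-ATPase pumps the protons that keep the lumen acid. RPE cells rely on this system every day, because they phagocytose the shed tips of photoreceptor outer segments and digest them in phagolysosomes with enzymes such as cathepsin D. Transcription factors of the MiT/TFE family (TFEB, TFE3, MITF and TFEC) bind E-box motifs in the promoters of many lysosomal genes and can switch them on together.

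The E-box motifs were searched in RefSeq promoter windows (build GRCm38.p6, 250 bases before to 50 after the gene start), which were given for 44 of the 51 genes. The 6 letters CACGTG, which read the same on both strands, lay in the windows of 16 of these 44 genes (36.4%) against 2187 of 27025 genes (8.09%) in the whole table. The 8-letter form TCACGTGA, which contains the first motif, lay in 8 of 44 (18.2%) against 1.12% of all genes, and the 10-letter form GTCACGTGAC, which contains both, in 1 of 44 (2.27%, Cln3) against 0.37%. Motif-bearing windows occurred among genes of every outcome described below. Of the 10 genes with a window that were higher in KO22 than in WT, 4 held CACGTG, as did 4 of the 21 that were lower and 8 of the 13 that were not called. Among the genes with full statistics below, Gla and Ctsd held the 8-letter form before the RefSeq gene start. The 30 bases around the motif are shown because Gla rose and Ctsd fell in KO22. They run 5′ to 3′ on the gene's strand, with TCACGTGA in capitals.
Gla: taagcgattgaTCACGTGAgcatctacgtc
Ctsd: tcgcccgcgtcTCACGTGAcccgttgaggg
The Gla stretch is chrX:134601215-134601244 on the minus strand of GRCm38, and its motif, the first of 2 in the promoter window, starts 228 bases before the RefSeq gene start. The gene start in the GRCm39 annotation (GENCODE) is a different one, and the motif starts 78 bases before it. Exons of Gla and of Hnrnph2, on the opposite strand, overlap in that annotation. The Ctsd stretch is chr7:142387908-142387937 on the minus strand of GRCm38, with the motif starting 99 bases before the RefSeq gene start. In the GRCm39 annotation Ctsd starts further upstream, so that the motif lies within the annotated gene. A match describes the letters in the window and not the binding of a factor.

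Levels of different genes were compared as CPM per kb of exon. In WT mRPE the highest was Lamp1, the major lysosomal membrane glycoprotein, at 95.9 ± 4.09 CPM per kb (SD, n = 4), followed by Lamp2 (72.9 ± 11.9), the cholesterol carrier Npc2 (69.9 ± 6.97), and the cysteine proteases Ctsl (66.8 ± 6.31) and Ctsb (64.0 ± 9.04). The order among Lamp2, Npc2, Ctsl and Ctsb was within their SDs. The lowest was Ctsc at 0.096 ± 0.0354 CPM per kb. In WT RPE/choroid, a table normalized separately, the order began with Psap, the precursor of the saposin activators, at 50.2 ± 5.71 CPM per kb (SD, n = 3), then Lamp1 (40.5 ± 3.36) and Ctsd (36.8 ± 3.62), and Lamp1 and Ctsd did not differ beyond their SDs. Ctsc was 28th of the 51 genes in RPE/choroid and last of the 51 in WT mRPE. All 51 genes together took 0.468 to 0.581% of all counts in WT mRPE, 0.520 to 0.624% in KO22 and 0.437 and 0.564% in KO26, so that these ranges overlapped.

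**Figure D1:**
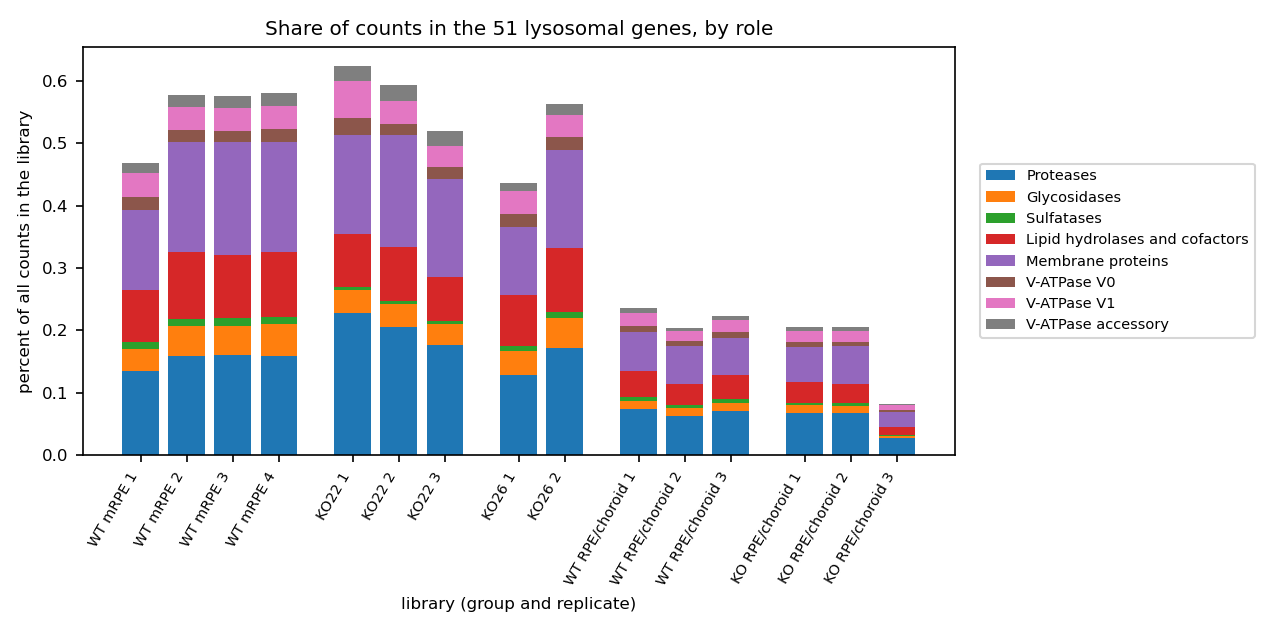
Stacked bars give the percent of all counts in each of the 15 libraries that fell on the 51 genes, by role, from 0 upwards. Total shares of the mRPE groups overlap, while protease shares (bottom segment) are 0.177 to 0.228% in KO22 and 0.135 to 0.161% in WT, and the low bar at the right is Prom1-KO RPE/choroid replicate 3, at 0.0824%.

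The first comparison asked which lysosomal genes differ between KO22 and WT mRPE. Of the 51, 13 rose and 21 fell in KO22 (edgeR quasi-likelihood test over all genes, adjusted p under 0.05, 4 WT and 3 KO22 libraries, batch as a term). The background was 26.9% of all 20455 genes tested rising and 26.1% falling, against 25.5% and 41.2% of the lysosomal genes, and 53% of all genes passed in either direction (58.4% at an unadjusted p under 0.05) against 66.7% of the lysosomal genes. The median log2 fold change was −0.07 over the 51 and −0.03 over all genes. Of the 31 hydrolases and cofactors, 6 rose and 17 fell (median −0.32), and of the 14 V-ATPase genes 6 rose and 3 fell (median 0.26). The difference between these groups, and between the smaller role groups that follow, was not tested, and each role count stands against the same background of 26.9% and 26.1%. With a log2 fold change over 1.2 asked for as well, 2 rose and 6 fell, against 11.4% and 13.8% of all genes, and all 8 were hydrolases or cofactors.

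**Figure D2:**
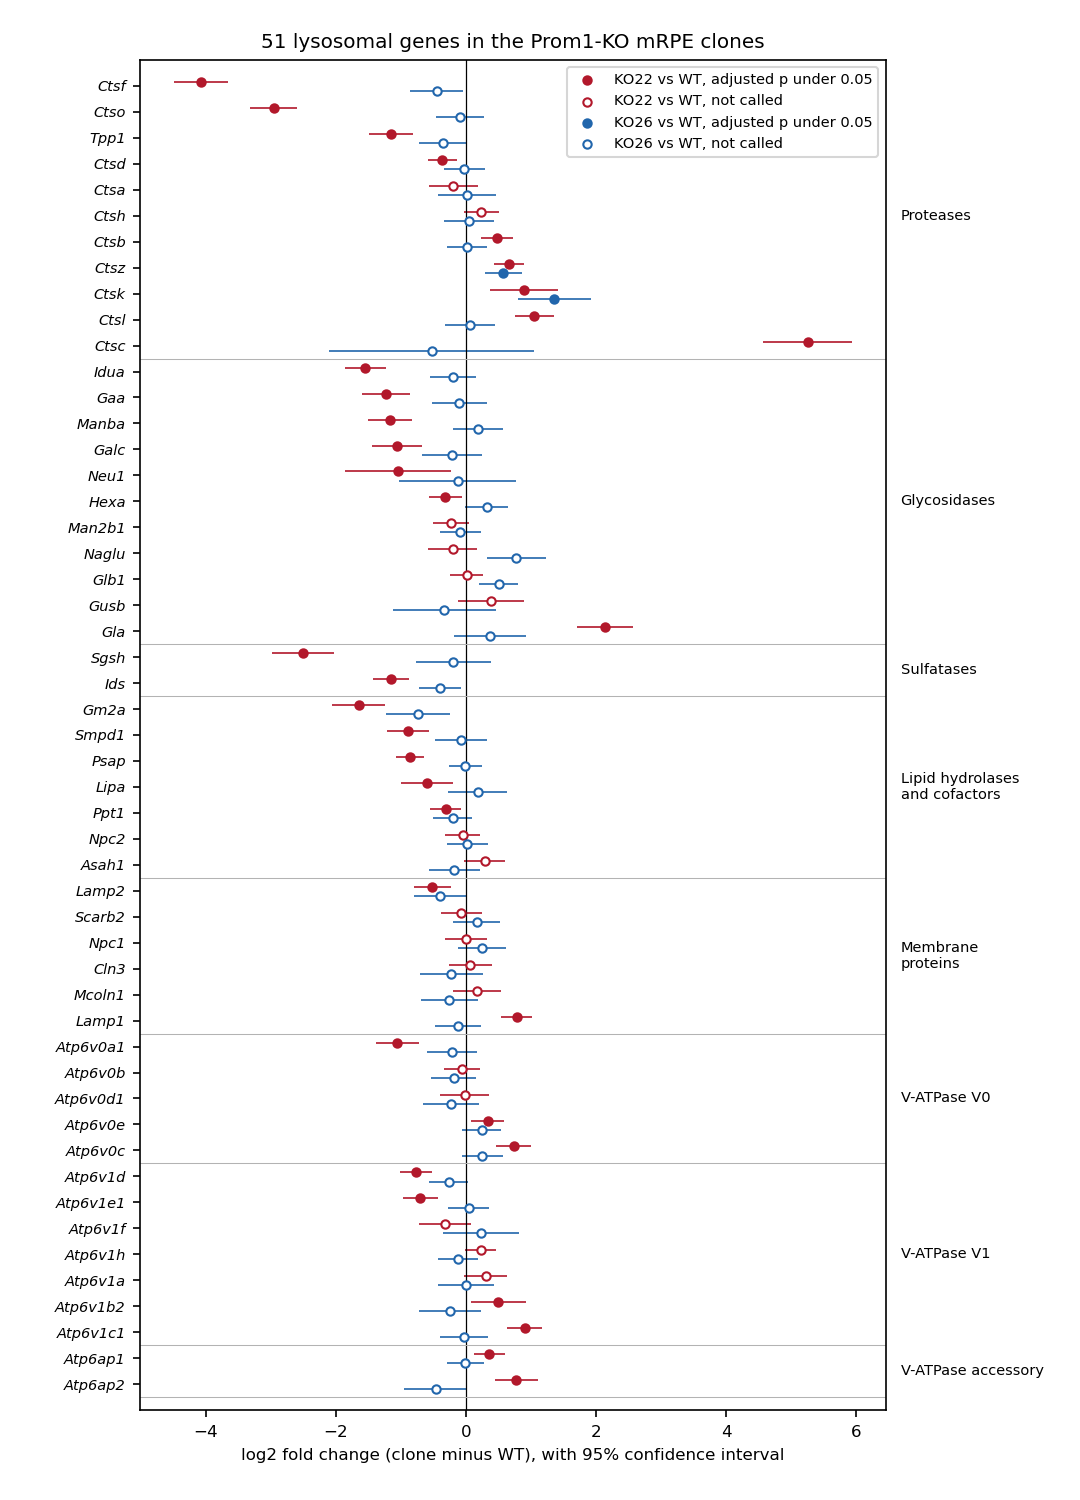
Points give the log2 fold change of each of the 51 genes, grouped by role, in KO22 (red) and KO26 (blue) against WT mRPE, with 95% confidence intervals as bars and filled points at an adjusted p under 0.05. KO22 ranges from −4.07 for Ctsf to 5.25 for Ctsc, while in KO26 only Ctsk and Ctsz are filled.

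The proteases held the changes in both directions that were largest in size. Ctsc encodes cathepsin C (dipeptidyl peptidase I), which activates granule serine proteases in immune cells, at chr7:87927092-87960096 of GRCm39. It stood at 16.5, 29.7 and 28.6 CPM in KO22 and at 0.874, 0.411, 0.687 and 0.431 CPM in WT. The ranges did not overlap, and the log2 fold change was 5.25 (SE 0.30, adjusted p = 1.83e-06). The WT value rested on only 41 counts in all, and the ratio from the summed counts was 40.5 (95% interval 29.7 to 56.8, counting error only). Ctsc lies on chromosome 7, where the median gene fell by 0.32.

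Ctsf, encoding cathepsin F, a cysteine protease known for cleaving the invariant chain in macrophages, lies at chr19:4905118-4915986. It stood at 1.04, 1.50 and 1.16 CPM in KO22 and at 15.3, 23.8, 23.6 and 24.5 CPM in WT. Every KO22 library was below every WT library (log2 fold change −4.07, SE 0.18, adjusted p = 6.35e-07). Ctso, encoding cathepsin O, a little-studied cysteine protease, stood at 4.58, 7.29 and 5.35 CPM in KO22 and 37.9, 42.3, 53.6 and 49.5 CPM in WT (−2.96, SE 0.16, adjusted p = 1.40e-06).

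The abundant endopeptidase Ctsl went the other way. It stood at 1034, 930 and 811 CPM in KO22 and at 406, 458, 499 and 419 CPM in WT, without overlap (log2 fold change 1.05, SE 0.13, adjusted p = 0.000167). Ctsk, the collagen-degrading cathepsin of osteoclasts, was much lower in level, with 8.38, 8.01 and 6.98 CPM in KO22 and 2.82, 4.94, 4.32 and 5.38 CPM in WT (0.89, SE 0.23, adjusted p = 0.00922). Ctsz (0.66) and Ctsb (0.48) also rose. Ctsd, the aspartic protease that digests outer segment proteins in the RPE, fell by 0.36 on the log2 scale (SE 0.10, adjusted p = 0.0121). Its levels were 60.1, 54.3 and 55.9 CPM in KO22 and 74.7, 67.5, 74.3 and 74.1 CPM in WT. Tpp1, the tripeptidyl peptidase deficient in a form of neuronal ceroid lipofuscinosis, fell by 1.15, and Ctsa (−0.19) and Ctsh (0.24) were not called. The summed protease level was 1798 to 2339 CPM in KO22 and 1433 to 1611 CPM in WT.

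Among the glycosidases, 6 of 11 fell and 1 rose, against 26.1% and 26.9% of all genes. The one that rose was Gla, encoding alpha-galactosidase A, the enzyme missing in Fabry disease, at chrX:133488891-133501904. It stood at 90.9, 57.9 and 49.0 CPM in KO22 and at 12.7, 14.1, 14.5 and 16.01 CPM in WT (log2 fold change 2.14, SE 0.19, adjusted p = 2.09e-05). The lowest KO22 library was above every WT library. Idua, which removes iduronic acid from dermatan and heparan sulfate, was the most reduced, with 8.12, 12.8 and 10.3 CPM in KO22 and 23.3, 31.4, 34.7 and 36.6 CPM in WT (−1.55, SE 0.14, adjusted p = 2.07e-05). Gaa, which breaks down lysosomal glycogen (−1.23), the beta-mannosidase Manba (−1.17), Galc, which degrades galactosylceramide of myelin (−1.07), the sialidase Neu1 (−1.04) and the beta-hexosaminidase subunit Hexa (−0.32) fell too. Glb1, Gusb, Man2b1 and Naglu were not called, with values from −0.23 to 0.39.

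Both sulfatases, which act on heparan sulfate, fell. Sgsh stood at 1.90, 3.38 and 3.18 CPM in KO22 and 17.2, 14.0, 17.2 and 16.7 CPM in WT, without overlap (log2 fold change −2.51, SE 0.21, adjusted p = 1.61e-05). Ids fell by 1.15.

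Of the 7 lipid hydrolases and cofactors, 5 fell and none rose. Gm2a, the activator that presents GM2 ganglioside to beta-hexosaminidase, stood at 24.9, 9.50 and 10.1 CPM in KO22 and at 52.1, 37.1, 39.1 and 34.5 CPM in WT (−1.65, SE 0.18, adjusted p = 6.56e-05). The batch 1 library was the highest in both groups. Acid sphingomyelinase Smpd1 (−0.89), Psap (−0.86), acid lipase Lipa (−0.60) and the palmitoyl thioesterase Ppt1 (−0.31) fell. Acid ceramidase Asah1 (0.29) and Npc2 (−0.05) were not called.

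The membrane proteins moved less. Lamp1 rose, from 507, 480, 527 and 485 CPM in WT to 894, 859 and 829 CPM in KO22 (log2 fold change 0.78, SE 0.11, adjusted p = 0.000247). Lamp2, which is needed for chaperone-mediated autophagy and for fusion of autophagosomes, fell by 0.52, at 544, 746 and 603 CPM in KO22 and 724, 959, 1090 and 928 CPM in WT, with overlapping ranges. Npc1, the cholesterol transporter (0.00), the calcium channel Mcoln1 (0.17), the receptor of beta-glucocerebrosidase Scarb2 (−0.07) and Cln3 (0.07) were not called.

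In the V-ATPase the 2 sectors held changes in both directions. Of V1, Atp6v1c1, whose subunit C links the stator to V1, rose from 55.2, 47.0, 46.9 and 42.4 CPM in WT to 130, 76.0 and 78.2 CPM in KO22 (log2 fold change 0.90, SE 0.12, adjusted p = 0.000232). Atp6v1b2, a subunit of the catalytic head, rose by 0.49 (adjusted p = 0.0497). Atp6v1d, of the central rotor (−0.76), and Atp6v1e1, of a peripheral stalk (−0.70), fell. The regulatory subunit H gene Atp6v1h was not called, at 97.9, 75.0 and 67.7 CPM in KO22 and 74.7, 65.7, 64.2 and 62.3 CPM in WT (0.22, SE 0.10, adjusted p = 0.096). Of V0, Atp6v0c, the proton-carrying proteolipid (0.73), and Atp6v0e (0.33) rose and the large a1 subunit gene Atp6v0a1 (−1.05) fell. Both accessory genes rose, Atp6ap1 by 0.36 and Atp6ap2, the prorenin receptor, by 0.78. Atp6ap2 stood at 83.7, 70.2 and 58.1 CPM in KO22 and 35.9, 43.3, 44.8 and 40.1 CPM in WT (SE 0.15, adjusted p = 0.00172).

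**Figure D3:**
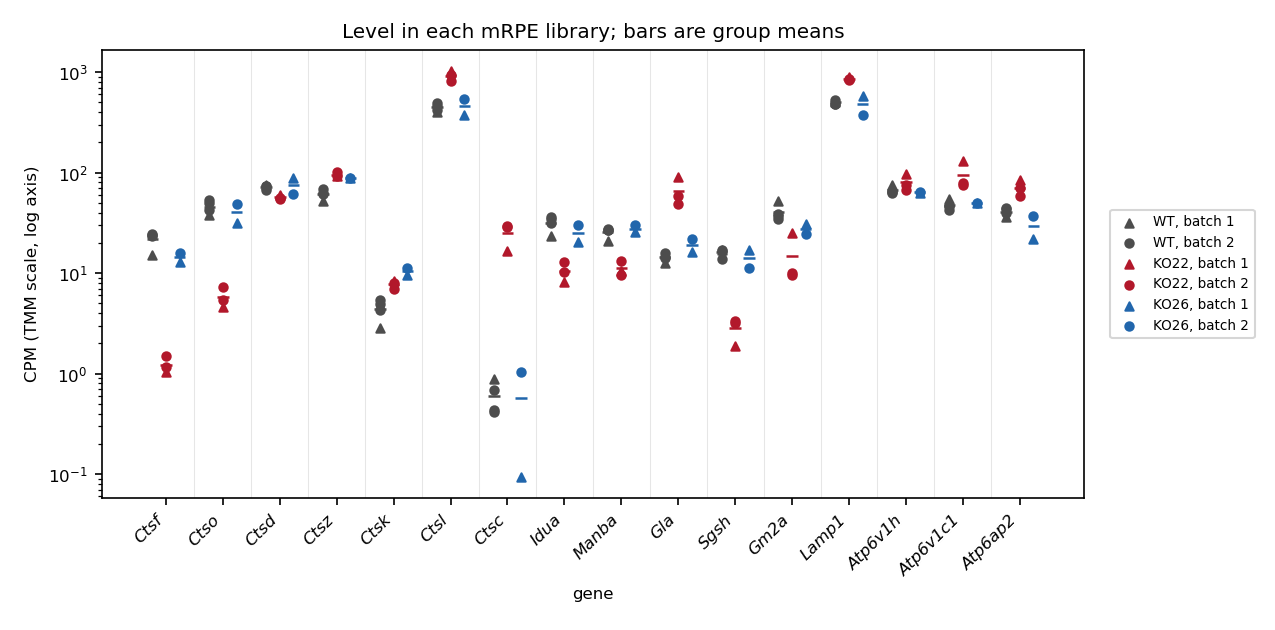
Each point is 1 mRPE library's level of a gene in CPM on a log axis, in WT (grey), KO22 (red) and KO26 (blue), with triangles for batch 1, circles for batch 2 and bars at the group means. KO22 libraries lie apart from WT for Ctsf, Ctso, Sgsh, Gla and Ctsc, whereas KO26 libraries lie nearer to WT than to KO22 for these. KO26 libraries lie above WT for Ctsk, Ctsz and, narrowly, Gla, and below WT for Gm2a.

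The ranges of KO22 and WT did not overlap for 11 of the 51 genes higher (21.6%) and 18 lower (35.3%), against 24.8% and 25.3% of all genes tested. The 5 called genes with overlap were Lamp2, Ctsb, Lipa, Neu1 and Atp6v0e. The difference had the same sign within both batches for 32 of the 34, and the exceptions were Lipa (0.01 in batch 1, −0.86 in batch 2) and Neu1 (0.25 and −1.52). The 34 were called from these same libraries, which favours equal signs, so that this count is no independent check of the calls. Batch 1 holds 1 WT and 1 KO22 library, so that leaving out either left only batch 2 to compare the groups. Leaving out any 1 of the 7 libraries cost between 1 and 7 calls, the most without KO22 replicate 2. That fit left 9 higher and 18 lower, against 4025 and 4511 of all 19939 genes tested. The calls that were lost in at least 1 of these fits were those of Ctsb, Hexa, Lipa, Neu1, Ppt1, Atp6v0e, Atp6v1b2 and Atp6ap1. Exons of 34 of the 51 genes overlap another annotated gene, mostly on the opposite strand, among them Ctsf with Actn3 and Sgsh with Slc26a11. The library kit keeps strand, but which strand was counted is not stated.

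The chromosome medians of KO22 were not level, ranging from −0.54 on chromosome 10 to 0.60 on chromosome 8. Of the lysosomal genes 6 lie on chromosome 8, and Lamp1 stood only 0.18 above its median. Of the genes far from 0, Ctsc (5.57), Ctsf (−3.65), Ctso (−3.07), Sgsh (−2.48) and Gla (1.95) stayed far from the median of their own chromosome. With these medians subtracted, 11 of the 51 genes were called higher and 19 lower, against 5353 and 4852 of all 20455 genes tested. Lamp1 (0.18, adjusted p = 0.194), Ctsd (−0.04, adjusted p = 0.731), Ctsb, Lipa, Atp6v1b2, Atp6v1d, Atp6v1e1 and Atp6ap1 lost their call, and Man2b1, Npc2, Atp6v0d1 and Atp6v1h gained one.

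**Figure D4:**
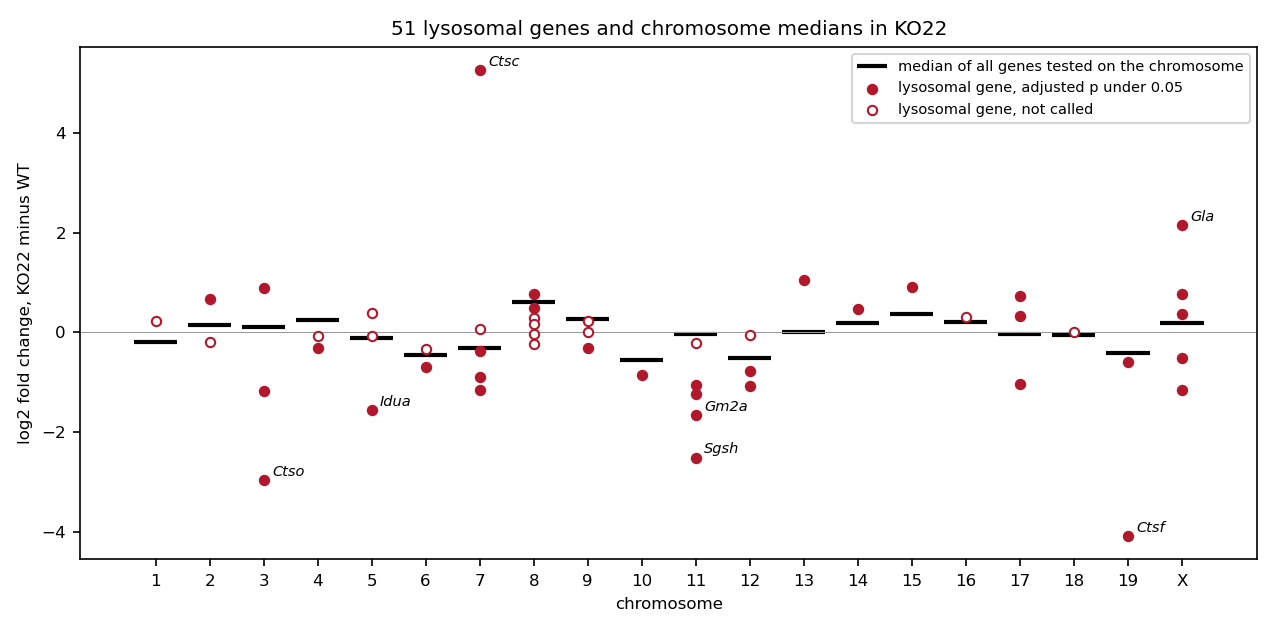
Black lines give the median log2 fold change (KO22 minus WT) of all genes tested on each chromosome, and points the lysosomal genes there, filled at an adjusted p under 0.05. The line on chromosome 8 is at 0.60 and that on chromosome 10 at −0.54, and Ctsc, Ctsf, Ctso, Sgsh and Gla lie far from the line of their chromosome.

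The second comparison asked the same of KO26. Here 2 of the 51 genes rose and 0 fell (edgeR, adjusted p under 0.05, one fit over all 9 mRPE libraries), against a background of 2.36% of 20737 genes rising and 1.13% falling, or 3.5% in either direction. With the log2 limit of 1.2 as well, Ctsk alone remained, against 1.21% of all genes rising and 0.719% falling. At an unadjusted p under 0.05 there were 7 (20.1% of all genes), and DESeq2 called 4 higher and 1 lower, against 4.7% and 3.01% of all genes. Ctsk stood at 9.65 and 11.3 CPM in KO26 (log2 fold change against WT 1.36, SE 0.25, adjusted p = 0.0196). Ctsz, encoding the carboxypeptidase cathepsin Z, stood at 88.6 and 88.5 CPM in KO26 and at 52.8, 61.5, 62.3 and 68.5 CPM in WT (0.57, SE 0.13, adjusted p = 0.0388). Both were above every WT library, and both had risen in KO22 as well, with Ctsz at 92.4, 102 and 93.7 CPM there. The ranges of KO26 and WT did not overlap for 6 of the 51 genes higher (11.8%) and 5 lower (9.80%). Of all genes tested, 11.9% were higher and 12.8% lower without overlap. The KO22 and KO26 comparisons share their WT libraries. Neither gene kept its call when any 1 of the WT or KO26 libraries was left out, Ctsk then ranging from 1.10 to 1.44 and Ctsz from 0.49 to 0.67.

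The genes that were far from WT in KO22 had the following values in KO26. Ctsc stood at 0.0928 and 1.04 CPM (log2 fold change −0.53, 95% interval −2.11 to 1.05), and Ctsf at 13.04 and 15.8 CPM (−0.45, −0.86 to −0.04, adjusted p = 0.207). Ctso stood at 31.8 and 49.0 CPM (−0.09), Sgsh at 17.0 and 11.3 CPM (−0.19), Gla at 16.1 and 21.7 CPM (0.37) and Ctsl at 379 and 539 CPM (0.06). Gm2a stood at 30.8 and 24.4 CPM, below every WT library (−0.74, −1.23 to −0.25, edgeR adjusted p = 0.0983). It was the gene that DESeq2 called lower. Idua stood at 20.3 and 30.0 CPM (−0.20). Lamp1 (−0.13), Ctsd (−0.02) and Atp6v1h (−0.12) were not called. For 44 of the 49 genes not called the 95% interval lay within 1 log2 unit of 0, the others being Ctsc, Gusb, Naglu, Neu1 and Gm2a. The sign of the difference was the same in both batches for 31 of the 51 genes. The 2 KO26 libraries lay far apart for several genes, Lamp2 among them, at 441 CPM in batch 1 and 888 CPM in batch 2.

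The knockout lines were then compared directly. KO22 was higher than KO26 in 9 of the 51 genes and lower in 19 (edgeR, adjusted p under 0.05), against backgrounds of 16.3% and 18.1% of 20737 genes, and 34.4% of all genes differed in either direction (44.2% at an unadjusted p under 0.05). With the log2 limit of 1.2 as well, 3 were higher and 5 lower, against 7.56% and 10.7% of all genes. Ctsc (5.77, SE 0.61, adjusted p = 7.24e-05), Gla (1.81, SE 0.27), Atp6ap2 (1.27, SE 0.23), Ctsl (1.01, SE 0.19) and Atp6v1c1 (0.95, SE 0.18) were the most increased in KO22 relative to KO26. Lamp1 was higher as well (0.89, SE 0.17, adjusted p = 0.00255), while Ctsd (−0.35, adjusted p = 0.0927) and Atp6v1h (0.35, adjusted p = 0.0858) were not called. Ctsf (−3.63, SE 0.22, adjusted p = 2.08e-06), Ctso (−2.87, SE 0.19), Sgsh (−2.31, SE 0.29), Manba (−1.35, SE 0.18) and Idua (−1.35, SE 0.17) were the most decreased. Manba stood at 10.5, 13.4 and 9.62 CPM in KO22 and 25.5 and 30.0 CPM in KO26, without overlap. Glb1 and Naglu, which were not called in KO22 against WT, were called lower in KO22 than in KO26. Naglu stood at 8.55, 10.3 and 8.999 CPM in KO22, 20.0 and 16.5 CPM in KO26 and 9.72 to 13.1 CPM in WT. For 8 genes called in KO22 against WT the difference between the lines was not called, namely Lamp2, Ctsd, Ctsk, Ctsz, Neu1, Ppt1, Atp6v0e and Atp6ap1. For Ctsk the difference was −0.47 (95% interval −1.04 to 0.11) and for Ctsz 0.09 (−0.21 to 0.39).

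The last comparison set Prom1-KO against WT RPE/choroid. None of the 51 genes was called (edgeR, 3 against 3 libraries), against a background of 0% of 24926 genes rising and 0.193% falling. DESeq2 called none either, against 0.582% of all genes rising and 1.22% falling, and 2 genes (edgeR) or 3 (DESeq2) had an unadjusted p under 0.05, which 8.3% of all genes had in edgeR. The log2 fold changes ran from −0.46 to 0.43, and for 49 of the 51 the 95% interval lay within 1 log2 unit of 0, the exceptions being Glb1 and Atp6v0c. The 2 genes with an unadjusted p under 0.05 in edgeR were Ctsa, the protective protein that stabilises beta-galactosidase and sialidase, and Ids. Ctsa stood at 52.4, 48.3 and 50.7 CPM in WT and 41.7, 38.7 and 36.5 CPM in Prom1-KO (−0.37, SE 0.12, adjusted p = 0.428). Ids stood at 47.3, 46.0 and 43.7 CPM in WT and 36.7, 38.6 and 32.7 CPM in Prom1-KO (−0.34, SE 0.12, adjusted p = 0.499). In both the ranges did not overlap, as in 6 of the 51 genes lower and 5 higher in Prom1-KO, against 7.89% and 6.7% of all genes.

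The compartment markers in RPE/choroid were close between groups. Lamp1 stood at 211, 228 and 193 CPM in WT and 190, 217 and 192 CPM in Prom1-KO (−0.08, 95% interval −0.41 to 0.25). Ctsd stood at 113, 98.1 and 94.2 CPM in WT and 117, 116 and 78.1 CPM in Prom1-KO (0.02, −0.42 to 0.47). Atp6v1h had a log2 fold change of −0.12 (−0.44 to 0.21). The genes that were far from WT in KO22 had log2 fold changes of 0.15 (Ctsc), 0.04 (Ctsf), 0.31 (Ctso), −0.09 (Gla) and −0.26 (Sgsh) in the tissue.

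**Figure D5:**
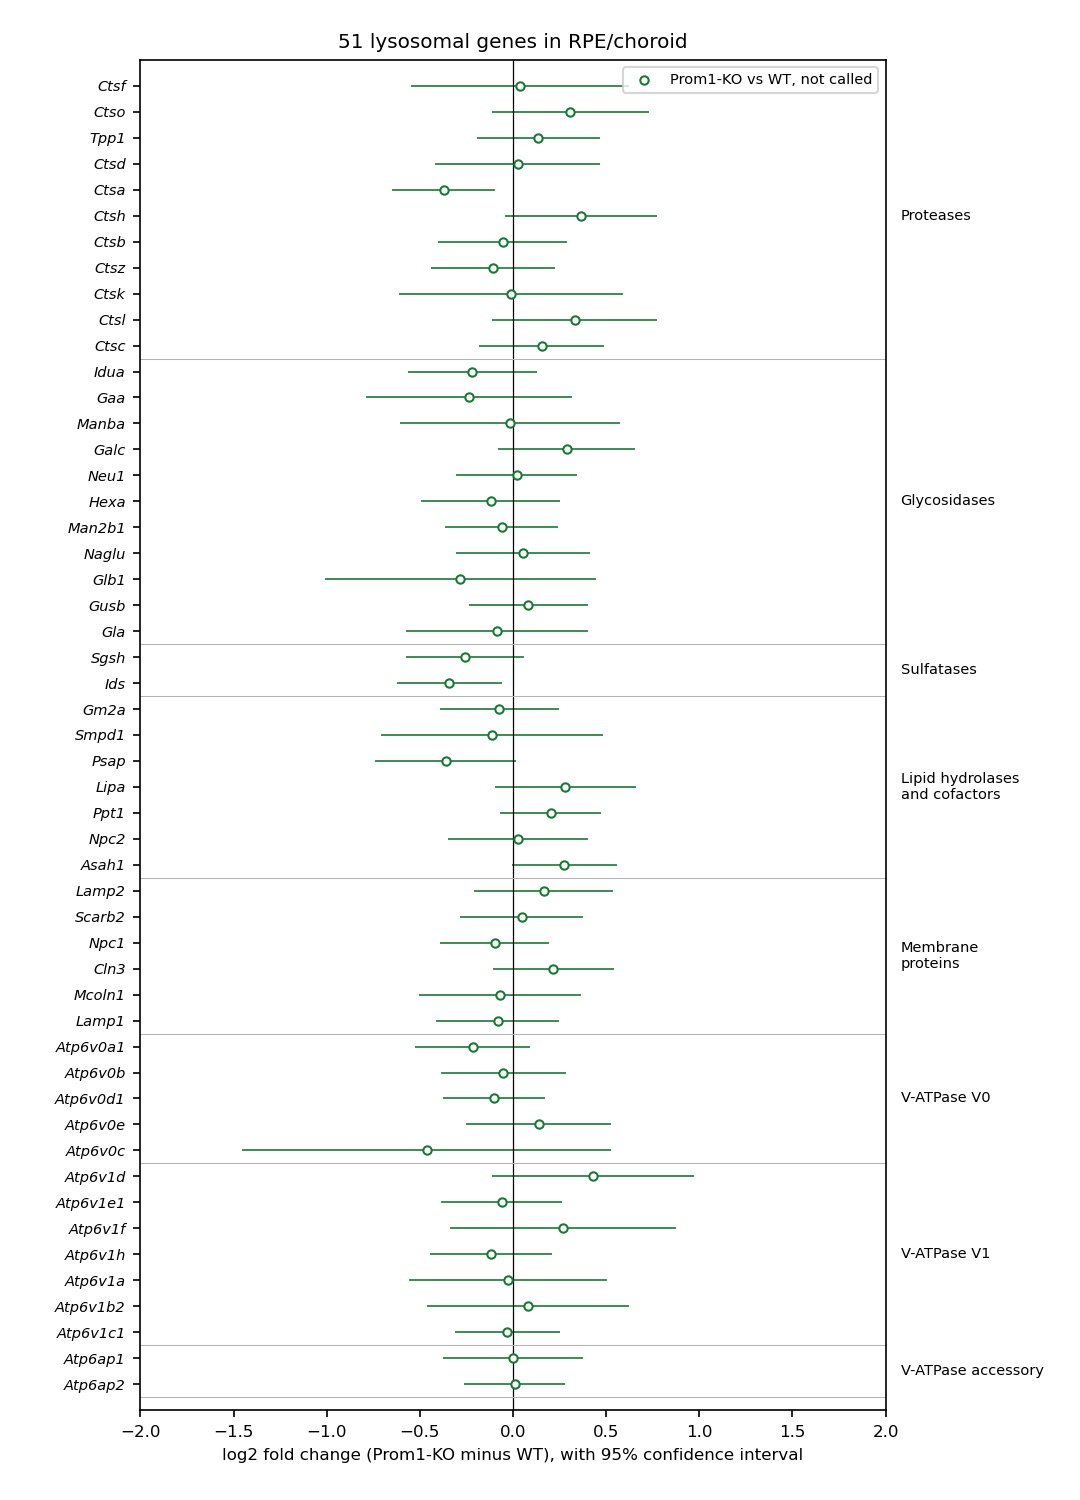
Points give the log2 fold change (Prom1-KO minus WT, 3 libraries each) of the 51 genes in RPE/choroid with 95% confidence intervals as bars, in the same order as for mRPE. All points are open, since no gene was called, and they lie between −0.46 and 0.43.

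Of the 14 RPE markers, 3 were called lower and 0 higher in Prom1-KO RPE/choroid, with a median log2 fold change of −0.46 over the list. The 14 markers summed to 2622 to 3580 CPM in WT and 1288 to 1465 CPM in Prom1-KO, and the visual cycle genes Rpe65 (−6.06), Rgr (−5.23) and Lrat (−3.43) were called lower (edgeR adjusted p = 0.0191, 0.0242 and 0.00445), while the melanosome genes Tyr (0.31), Tyrp1 (−0.16) and Pmel (−0.15) were not called. In such bulk tissue, fewer RPE cells and less RNA per cell cannot be told apart. Summed levels of 12 macrophage markers, cells rich in lysosomes, overlapped (297 to 378 CPM in WT, 261 to 365 CPM in Prom1-KO). Those of 7 endothelial markers did not (80.2 to 167 CPM in WT, 50.3 to 75.1 CPM in Prom1-KO, median log2 fold change −0.88), although none of the 7 was called, and those of 10 photoreceptor markers ran from 22.8 to 1213 CPM over the 6 libraries. Prom1-KO replicate 3 stood apart, with 84.2% of its counts on mitochondrially encoded genes against 64.9 to 71.3% in the other libraries. It was below both other Prom1-KO libraries in 32 of the 51 genes and above both in 12, and the shares over all genes were not computed. Without replicate 3, 0 of the 51 genes were called as well by edgeR, with 2 at an unadjusted p under 0.05. The part of any of these differences in the lysosomal values was not tested.

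Further lysosomal genes outside the 51 were followed as a list of 65, of which 57 were tested in mRPE. In KO22 against WT, 14 rose and 24 fell (24.6% and 42.1% of those tested, against 26.9% and 26.1% of all genes). In KO26 against WT 0 rose and 1 fell by edgeR (Gpnmb, −1.91). There 12 of the 57 had an unadjusted p under 0.05 by edgeR, which 20.1% of all genes had. Between the lines 8 were higher and 16 lower in KO22 (14.0% and 28.1%, against 16.3% and 18.1% of all genes). The single call in KO26 stands against 2.36% and 1.13% of all genes. In RPE/choroid 0 of 62 were called in either direction by edgeR, against 0.193% of all genes. Of the 62, 4 had an unadjusted p under 0.05 by edgeR, which 8.3% of all genes had. Acp5, the tartrate-resistant phosphatase of osteoclasts and macrophages, had 17, 26 and 10 counts in KO22 and 0, 0, 1 and 0 in WT (ratio of the summed levels 74.9, 95% interval 12.9 to 3014, counting error only). Slc11a1, a metal transporter of phagosomes, had 14, 49 and 27 counts in KO22 and 1, 0, 1 and 5 in WT (18.2, 8.47 to 46.5). The V1 subunit gene Atp6v1b1, an isoform typical of kidney and inner ear, had 1 count in each KO22 library and 17, 13, 10 and 13 in WT (ratio 0.080, 0.016 to 0.247). All 3 were at low counts.

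The MiT/TFE factors were measured in the same libraries. Tfeb stood at 6.57, 5.26 and 5.59 CPM in KO22 and 4.09, 2.54, 3.63 and 3.45 CPM in WT (log2 fold change 0.74, SE 0.21, adjusted p = 0.0133). Tfe3 stood at 38.9, 40.1 and 38.9 CPM in KO22 and 21.4, 30.0, 29.1 and 31.6 CPM in WT (0.53, SE 0.13, adjusted p = 0.00653). Mitf stood at 20.1, 12.5 and 10.4 CPM in KO22 and 3.02, 6.17, 6.77 and 6.03 CPM in WT (1.41, SE 0.33, adjusted p = 0.0055). All 3 were thus called higher in KO22 without overlap of the ranges, against 26.9% of all genes called higher and 24.8% higher without overlap. Their part in the lysosomal values was not tested. In KO26 Mitf stood at 1.62 and 2.08 CPM (−1.54, adjusted p = 0.0864), and Mitf (2.97) and Tfe3 (0.56) were called higher in KO22 than in KO26. In RPE/choroid none of the 4 was called, with Mitf nearest at 53.9, 52.6 and 44.3 CPM in WT and 27.5, 27.6 and 30.3 CPM in Prom1-KO (−0.82, SE 0.13, adjusted p = 0.0815). Tfec was not tested in mRPE, and had a log2 fold change of 0.26 in RPE/choroid.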

How the data were processed

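Per the submitters' notes, reads were trimmed with Trim Galore 0.6.7, aligned with STAR to mm39 and counted per gene. The authors deposited raw counts, used here, and counts divided by DESeq2 size factors (a normalized signal), used here only as an alternative scale for levels. The mRPE and RPE/choroid tables were made separately and were not tested against each other. The strand counted is not given in the sources used here, and the library kit is named differently in the labels and the study's methods. How reads from stretches shared by 2 genes entered these counts is therefore not known.

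Counts were tested with edgeR 4.0.16 (R 4.3.3, limma 3.58.1), by the quasi-likelihood test with TMM scaling, after dropping genes that reached 5 counts in fewer than 3 libraries, with sequencing batch as a term in mRPE and Benjamini-Hochberg adjustment over all genes tested. Genes were called at an adjusted p under 0.05 and counted again with an absolute log2 fold change over 1.2. KO22 against WT used 7 libraries, and the KO26 comparisons used all 9. CPM values are on the TMM scale. Ratios of summed counts have exact 95% intervals that cover counting error only. Scripts were tested on simulated data. Alternatives were DESeq2 1.42.0, its size factors, other filters, no batch term, other sets of libraries, removal of chromosome medians and leaving out each library.

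Full statistics were given for the 5 genes with the largest change in each direction among those called in each comparison, and for Lamp1, Ctsd and Atp6v1h. Other lysosomal genes named were the 3 with the largest change among those called in KO22 against WT, and all MiT/TFE factors. The 51 genes and all lists were chosen with earlier results of these data known.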

Additional observations from a re-analysis of the deposited data

Results flagged for a closer look

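In WT mRPE, 5 of 21 genes given library by library, and both of the 2 shares of counts examined, had 1 library far from the other 3 by Dixon's test at 95%. Chance gives about 1 in 20 groups of like libraries, but replicate 1 is the only WT library of batch 1. It lay outside the range of the other WT libraries in 43 of the 51 genes, and the share over all genes was not computed. The 51 genes took 0.468% of counts in replicate 1 (0.576 to 0.581% in the others) and the proteases 0.135% (0.158 to 0.161%). Ctsf stood at 15.3 CPM in replicate 1 (23.6 to 24.5) and Manba at 20.99 CPM in replicate 1 (26.7 to 27.7). Sgsh stood at 14.0 CPM in replicate 2 (16.7 to 17.2), Ctsd at 67.5 CPM in replicate 2 (74.1 to 74.7) and Naglu at 13.1 CPM in replicate 4 (9.72 to 10.1).

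The difference from WT was not the same in the 2 knockout lines, as tested by comparing the lines directly (edgeR). KO22 was higher than KO26 in 9 of the 51 genes and lower in 19, against 16.3% and 18.1% of 20737 genes. Among the genes given in full, Ctsc (5.77), Gla (1.81), Atp6ap2 (1.27), Ctsl (1.01), Atp6v1c1 (0.95) and Lamp1 (0.89) were higher in KO22 on the log2 scale. Ctsf (−3.63), Ctso (−2.87), Sgsh (−2.31), Manba (−1.35) and Idua (−1.35) were lower.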

How the results depend on the processing

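In KO22 against WT the counts of 13 higher and 21 lower ranged from 9 to 14 and from 17 to 24 with 1 library left out. Over all genes those fits called 4025 to 6564 higher and 4437 to 6295 lower. The upper ends of 14 and 24 came from leaving out either batch 1 library, which left only batch 2 to compare the groups. With the log2 limit of 1.2 the counts were 2 and 6. In KO22 against KO26 the 9 higher and 19 lower ranged from 7 to 11 and from 16 to 23 with 1 KO22 library left out. Over all genes these fits called 2649 to 4827 higher and 3110 to 4392 lower. With that log2 limit the counts between the lines were 3 and 5, against 7.56% and 10.7% of all genes. Leaving out KO26 replicate 2 brought Ctsd (−0.59) and Atp6v1h (0.55) past the threshold there. The 2 calls of KO26 against WT were 0 without a batch term, 0 with any 1 WT library left out and 1 with the log2 limit. They were 4 higher and 1 lower with DESeq2, and 4 higher and 5 lower with the WT and KO26 libraries fitted alone. In that last fit 1742 of all 19877 genes tested were called higher and 1404 lower. The cause of these changes in the number of calls was not tested. Near 0, the sign turned for Ctsd in KO26 without a batch term (0.045) and, with 1 library left out, for Ctsd (−0.23 to 0.22), Atp6v1h (−0.32 to 0.039) and Lamp1 (−0.39 to 0.18) in KO26 and Ctsd in RPE/choroid (−0.082 to 0.18). Without mitochondrially encoded genes and the 10 genes with the most counts, the mean share of counts in the 51 genes was 0.745% in WT mRPE, 0.715% in KO22, 0.646% in KO26, 0.853% in WT RPE/choroid and 0.836% in Prom1-KO RPE/choroid, against 0.550%, 0.579%, 0.500%, 0.221% and 0.164% of all counts. Depth limits Ctsc in WT and KO26 mRPE, with as few as 6 and 2 counts in a library.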
